A study of Glycine max with 4 samples.

Results

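In soybean shoot tips and vegetative buds, 30 of the 69145 genes listed met a rule that asked for a lower level in the five-foliate line in both tissues of the study. The rule took 1 model per gene, the one with the highest mean RPKM (reads scaled by model length and library size). A gene had to reach 1 RPKM in at least 1 library of each tissue. Its log2((five-foliate RPKM + 1)/(standard RPKM + 1)) had to be at or under -1, a 2-fold difference, in the shoot tip and in the bud. Genes of a chromosome 3 interval (Glyma03g05320 to Glyma03g12150) were left out, and with them 38 genes would have met the rule. The members were thus chosen by the same genotype ratios that are given below, which stand as a description with no test. Shoot tips are called tips below where the line is named.

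The study compared 2 isolines of the soybean cultivar Clark, Clark standard, labelled wild type, and Clark five-foliate, labelled as the five-foliate mutant. Several 4-week-old plants of each line, grown in a greenhouse under optimal conditions, were harvested for young shoot tips and for vegetative buds. Each of the 4 combinations of line and tissue had 1 library, so differences below lack any replicate check and carry no p-value. The labels name no gene or allele for the five-foliate trait.

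A soybean leaf is normally trifoliate, and the five-foliate phenotype adds leaflets. Leaflets of a compound leaf arise on the flanks of a young leaf primordium at the shoot apex, and in many species KNOX1 homeobox genes, or in pea the LEAFY orthologue UNIFOLIATA, keep that tissue able to form them. Isolines are bred by repeated crossing to a common parent, so they share most of the genome but can still differ in stretches inherited from a donor. The files give identifiers without gene names, and 0 of the 69145 matched the reference gene table. Members are therefore described by identifier, chromosome, level and neighbours, and no function is given. The tissue labels could not be checked against marker genes for the same reason.

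Library totals recovered from the RPKM values ran from 97532923 alignments in the standard bud to 152791817 in the standard tip. For a model of 1 kb a count of 3 is worth 0.0196 to 0.0308 RPKM, depending on the library. Each fold carries a 95% exact binomial interval from whole reads recovered in this way, which covers counting error only. Where a five-foliate library had no read, the fold was computed with 3 reads in its place and is written as "at least". That value is not a limit of the interval, whose lower limit is lower and is given beside it. In bulk tissue, fewer cells of a type and less RNA per cell cannot be told apart. Over all genes passing the filter the median log2 ratio was 0.34 in the shoot tip and -0.06 in the bud.

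A 2-fold lower five-foliate level was found for 4.70% of genes passing the filter in the shoot tip and 0.206% in the bud. Both conditions together held for 0.0875% of the 34272 genes outside the interval that reached the filter in each tissue. These shares are the outcome of the rule itself. Members had a median of 3.88 RPKM in the standard tip and 4.78 in the standard bud, against medians of 4.40 and 6.16 for the 34421 genes in both filters with the interval kept. In the five-foliate libraries the member medians were 0.0781 RPKM in the shoot tip and 0.0930 in the bud. The members were thus moderate in level in the standard line, and most were close to 0 in the other.

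**Figure D1:**
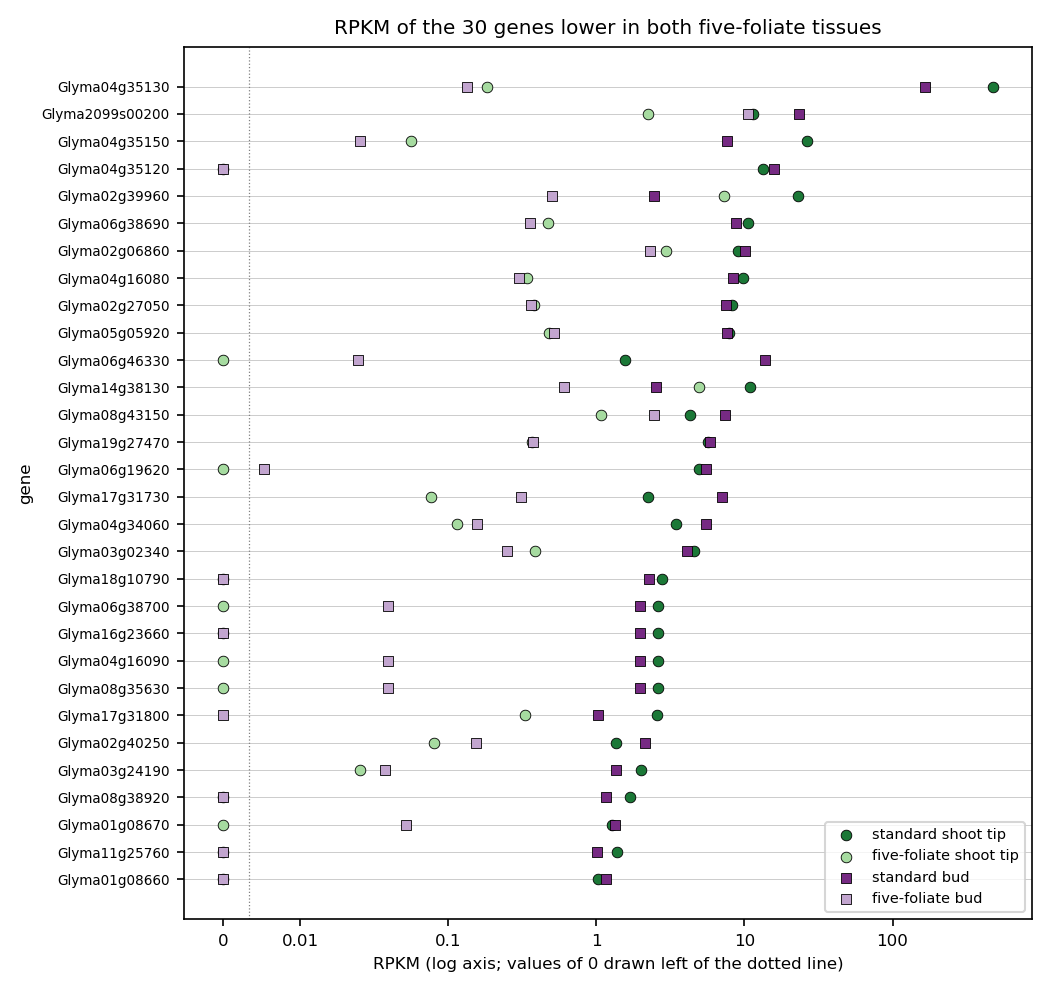
RPKM of each of the 30 genes (rows) in the 4 libraries on a log axis, with circles for shoot tip, squares for bud, dark for standard and light for five-foliate. Light symbols lie left of the dark ones of the same tissue in every row, and where both five-foliate values are 0 the square covers the circle. Glyma04g35130 stands apart with 480.4 RPKM in the standard tip.

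The members fell into 3 sets by their five-foliate level, a division made after the values were seen. In 14 genes both five-foliate values were at or under 0.1 RPKM. In 6 genes both lay between 0.2 and 0.6 RPKM. The other 10 met neither condition, and they included Glyma04g35130 and the 5 genes that reached 1 RPKM in a five-foliate library. No read was found in either five-foliate library for 6 members, and in exactly 1 of them for 7 more. In the standard line every member had reads in both tissues.

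The lowest shoot tip ratios belonged to 3 genes that are close neighbours by identifier on chromosome 4. Glyma04g35130 had 480.4 RPKM in the standard tip, 0.181 in the five-foliate tip, 166.1 in the standard bud, with 0.135 for the five-foliate bud. It alone made up 72.6% of the summed RPKM of the 30 members in the standard tip and 50.5% in the standard bud. Its rank by level over all genes was 93 in the standard tip and 332 in the standard bud. The five-foliate values rest on 49 and 27 reads, so the gene was low there but not at 0. The level was 2654-fold higher in the standard tip (interval 2008 to 3588) and 1235-fold higher in the standard bud (interval 848.5 to 1874).

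Glyma04g35120, the gene listed just before it, had 13.4 RPKM in the standard tip and 15.9 in the standard bud, and 0 reads in both five-foliate libraries. Its shortest fitting model length was only 64 bases, so 3 reads would be 0.335 RPKM in the five-foliate tip and 0.452 in the bud. The standard level was at least 39.9-fold higher for the shoot tip and, for the bud, at least 35.1-fold. The lower interval limits of these folds were 32.03 in the shoot tip and 27.98 in the bud. Glyma04g35150 had 26.3 RPKM in the standard tip, 0.0559 in the five-foliate tip, 7.64 in the standard bud, with 0.0251 for the five-foliate bud. These five-foliate values are 3 reads and 1 read. The folds were 471.1 (interval 160.9 to 2287) in the shoot tip and 303.8 (interval 54.1 to 12040) in the bud. Unlike Glyma04g35120, it shared with Glyma04g35130 a standard level that was higher in the tip than in the bud.

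In the bud, ratios at or under -1 stopped at the edges of this trio. The gene between them, Glyma04g35140, had 0.0677 RPKM in the five-foliate tip and no read in the standard line. On one side, Glyma04g35110 had 5.63 RPKM in the standard and 6.47 in the five-foliate tip, with 9.002 and 7.56 in the buds. On the other side, Glyma04g35160 had 9.38 and 7.40 in the shoot tips and 8.26 and 8.07 in the buds. Both flanking genes therefore had similar levels in the 2 lines. Over the 12 listed genes on each side of Glyma04g35130, 22 were not members and 14 of these passed the filter in both tissues. Their log2 ratios ran from -1.29 to 1.27 in the shoot tip and from -0.22 to 0.55 in the bud. The -1.29 belonged to Glyma04g35250, with 25.5 RPKM in the standard and 9.85 in the five-foliate tip. Glyma04g35040, which missed the filter in the bud, had 3.69 and 0.684 RPKM in the shoot tips, a log2 ratio of -1.48.

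**Figure D2:**
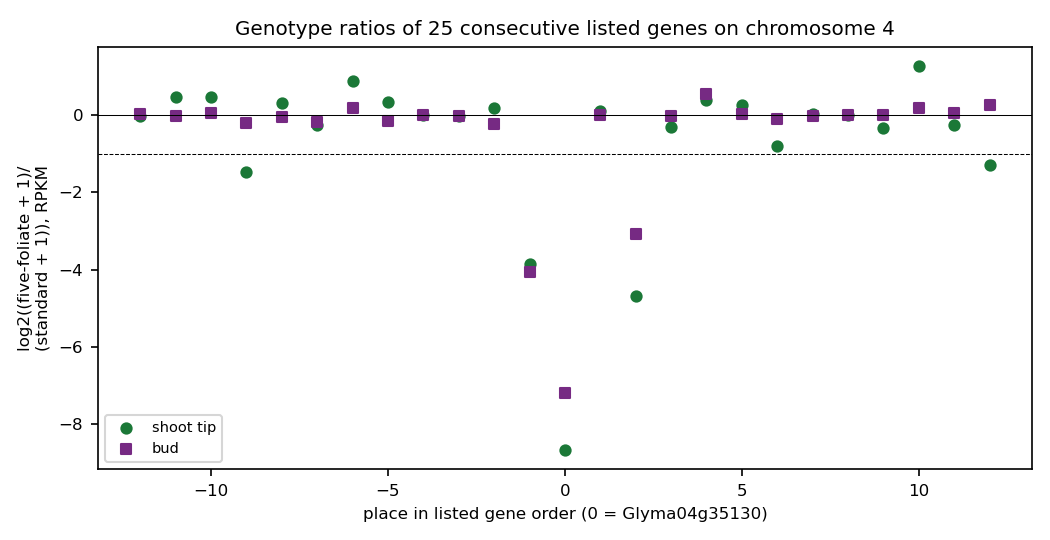
Genotype log2 ratio on the RPKM + 1 scale (vertical axis) of 25 consecutive listed genes, by place in gene order from Glyma04g35130 (horizontal axis), with circles for shoot tip and squares for bud. The 3 members at places -1, 0 and 2 lie at -3.07 or below in both tissues, and the bud values of the other genes lie between -0.22 and 0.55.

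Another member, Glyma04g34060, lay 106 listed places before this trio on the same chromosome. It had 3.45 RPKM in the standard tip and 5.51 in the standard bud, against 0.115 and 0.155 in the five-foliate libraries, which are 5 reads each. The interval of the fold was 12.6 to 93.6 in the shoot tip and 14.9 to 110.7 in the bud.

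On chromosome 6, Glyma06g19620 had 4.90 RPKM in the standard tip, from 1271 reads, and 5.47 in the standard bud, from 904 reads. It had 0 reads in the five-foliate tip and 1 read, 0.00569 RPKM, in the five-foliate bud. The standard level was at least 387.6-fold higher in the shoot tip (lower interval limit 314.7). It was 960.4-fold higher in the bud (interval 171.9 to 37980). At its shortest fitting length of 1696 bases, 3 reads would be 0.0127 RPKM in the five-foliate tip, so its level there lay far under its standard level.

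Glyma06g46330, also on chromosome 6, had 1.55 RPKM in the standard tip and 13.8 in the standard bud. It had 0 reads in the five-foliate tip and 2 reads, 0.0246 RPKM, in the five-foliate bud. The standard level was at least 56.7-fold higher in the shoot tip (lower interval limit 45.7). It was 560.9-fold higher in the bud (interval 154.9 to 4638). Its bud level in the standard line was 8.89 times its shoot tip level. The next gene in order, Glyma06g46340, was also lower in the five-foliate tip, with 15.7 against 3.55 RPKM, but had 3.03 and 2.74 RPKM in the buds.

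A set of genes on 4 chromosomes gave almost the same numbers. Glyma04g16090 and Glyma06g38700 both had 2.61 RPKM in the standard tip, 0 in the five-foliate tip, 1.98 in the standard bud, with 0.0389 for the five-foliate bud. Glyma08g35630 differed from them by 1 read in the standard tip. Glyma16g23660 differed by 1 read in the five-foliate bud, where it had none. The shortest fitting length was 248 bases for each, and the reads were 98 or 99, 0, 48, and 0 or 1 in the order given for the first pair. The sources do not state how multiply matching reads were counted, so the same reads may stand behind several of these genes, and their part in the result was not tested. With genes counted once where 3 of 4 values were equal, the 30 members became 27.

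The 6 genes with five-foliate values between 0.2 and 0.6 RPKM also resembled each other in level. They lay on chromosomes 2, 3, 4, 5, 6 and 19, with 1 gene on each. Their levels ran from 4.59 to 10.6 RPKM in the standard tip and from 4.09 to 8.76 in the standard bud. In the five-foliate line they ran from 0.341 to 0.481 RPKM in the shoot tip and from 0.247 to 0.516 in the bud. The folds lay between 11.8 and 28.8 in the shoot tip and between 14.9 and 27.8 in the bud.

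Among these 6, Glyma04g16080 had 9.82 RPKM in the standard tip, 0.341 in the five-foliate tip, 8.34 in the standard bud, with 0.2997 for the five-foliate bud. Glyma06g38690 had 10.6, 0.469, 8.76 and 0.357 RPKM in the same order. Glyma02g27050 had 8.21, 0.378, 7.52 and 0.361 RPKM. In each the standard values were high in both tissues and the five-foliate values low in both, with little difference between tissues. Glyma05g05920 had 7.80, 0.481, 7.67 and 0.516 RPKM. Glyma19g27470 had 5.64, 0.369, 5.87 and 0.374 RPKM, and Glyma03g02340 had 4.59, 0.387, 4.09 and 0.247 RPKM. Each of the 6 kept at least 9 reads in every five-foliate library.

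Some of these genes stood side by side with a gene of the near-zero kind. Glyma04g16080 is followed by Glyma04g16090, and Glyma06g38690 by Glyma06g38700, the pair with identical values. Their other neighbours, Glyma04g16070 and Glyma06g38680, missed the rule in the shoot tip only, where they did not reach 1 RPKM. Glyma04g16070 had 0.842 RPKM in the standard tip, 0.00761 in the five-foliate tip, 2.64 in the standard bud, with 0.0411 for the five-foliate bud. Glyma06g38680 had 0.780, 0, 2.52 and 0.0180 RPKM in that order. The levels of the 3 neighbours on chromosome 4 were thus close to those of the 3 on chromosome 6, gene by gene.

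A similar run surrounded Glyma05g05920 on chromosome 5. Glyma05g05910 had 0.549 RPKM in the standard and 0.00714 in the five-foliate tip, with 2.17 and 0.0289 in the buds. Glyma05g05930 had 1.54 and 0 RPKM in the shoot tips and 0.862 and 0.0406 in the buds. In all 3 runs the first gene was higher in the standard bud than in the standard tip, and the last was lower.

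**Figure D3:**
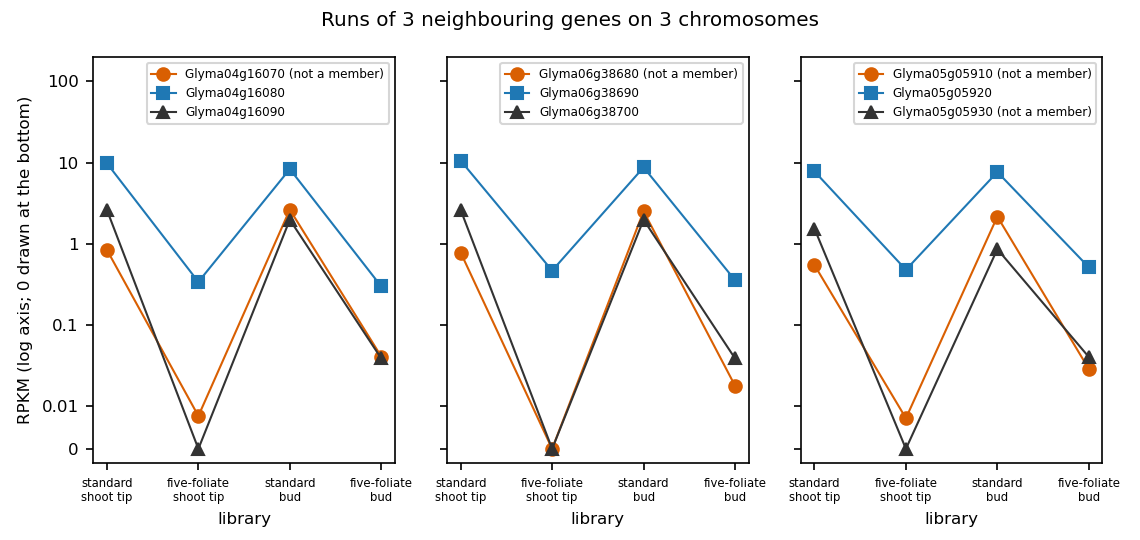
RPKM (log axis, 0 drawn at the bottom) in the 4 libraries for runs of 3 neighbouring genes on chromosomes 4, 6 and 5, with lines joining the values of 1 gene. In each run the middle gene has 7.67 RPKM or more in both standard libraries and between 0.2997 and 0.516 in both five-foliate libraries, and the outer genes lie below it in every library.

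To describe the neighbourhood of all members, the 3 listed genes on each side of each were examined, 145 genes that were not members. Of these, 86 reached 0.3 RPKM in both standard libraries. In 8 of the 86, or 9.30%, the five-foliate value was at or under 0.1 times the standard value in both tissues. Over all genes at that level the share was 0.155%, or 63 of 40702, and these 63 hold 24 members and 7 genes of the left-out interval. Of the 8 genes, 4 belong to the runs on chromosomes 4, 5 and 6. Reads shared between copies may stand behind several of them, and their part in the count was not tested. The settings of 0.3 RPKM and 0.1 times were chosen after the values were seen. The 8 genes stood beside Glyma02g27050, Glyma04g16080, Glyma05g05920, Glyma06g38690, Glyma08g38920, Glyma11g25760 and Glyma18g10790.

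Glyma02g27080, 3 places after Glyma02g27050, had 0.864 RPKM in the standard and 0 in the five-foliate tip, with 2.74 and 0.0191 in the buds. Glyma18g10810, beyond 1 other gene from Glyma18g10790, had 0.859 and 0.00666 RPKM in the shoot tips and 3.18 and 0.0359 in the buds. Glyma08g38900, in the same position to Glyma08g38920, had 0.527 and 0 RPKM in the shoot tips and 2.36 and 0.0283 in the buds. All 3 had levels like those of Glyma04g16070 and Glyma06g38680, higher in the standard bud than in the standard tip. Between Glyma18g10790 and Glyma18g10810, Glyma18g10800 had 1.42 and 0.946 RPKM in the shoot tips and 1.29 and 1.23 in the buds. Glyma08g38910, between Glyma08g38900 and Glyma08g38920, had at most 0.0693 RPKM in any library, too low to show a difference either way.

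Most neighbours that reached 0.3 RPKM in both standard libraries showed no such pattern, as 8 of the 86 did. Of the 61 neighbours that passed the filter in both tissues, 35 had log2 ratios within 0.5 of 0 in both, or 57.4%. The share was 54.7% of all genes in both filters. None of the 8 was among the 61, since each stayed under 1 RPKM in at least 1 tissue. The 57.4% was thus taken without them and without the members, and cannot show the pattern. Outside the interval, 32 genes that were not members had five-foliate values at or under 0.1 times the standard in both tissues with at least 0.3 RPKM in both standard libraries. In all 32 at least 1 tissue stayed under 1 RPKM in both lines, a level at which the ratio with a pseudocount of 1 cannot reach -1. For the same reason the number of members had to be 30 with no filter as well. Of the 30 members, 24 met the same 2 conditions.

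The remaining genes at or under 0.1 RPKM in the five-foliate line were of low level in the standard line. Glyma18g10790 had 2.79 RPKM in the standard tip and 2.28 in the standard bud, and 0 reads in both five-foliate libraries. Glyma08g38920 had 1.68 and 1.16 RPKM in the standard tip and bud, and Glyma11g25760 had 1.37 and 1.01, again with 0 reads in both five-foliate libraries. The standard levels of these 3 genes were at least 18.6-fold higher for the shoot tip and, for the bud, at least 9.56-fold. Both values were set by Glyma08g38920, with lower interval limits of 14.7 and 7.26. A pair on chromosome 1 showed the same absence at adjacent places. Glyma01g08660 had 1.03 and 1.17 RPKM in the standard tip and bud and 0 reads in the five-foliate line.

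Its neighbour Glyma01g08670 had 1.28 and 1.33 RPKM, 0 in the five-foliate tip and 0.0514, or 5 reads, in the five-foliate bud. On one side the pair was bounded by Glyma01g08680, with 1.08 and 0.927 RPKM in the shoot tips and 4.50 and 3.68 in the buds. On the other side, Glyma01g08650, Glyma01g08640 and Glyma01g08630 had at most 0.0939 RPKM in any library, too low to show a difference either way. Glyma03g24190 on chromosome 3, outside the left-out interval, had 2.00 RPKM in the standard tip and 1.36 in the standard bud, against 0.0253 and 0.0372. Its 11 and 12 five-foliate reads spread over a shortest fitting length of 3109 bases, the longest of the members. The fold was 79.0 (interval 44.0 to 158.8) in the shoot tip and 36.4 (interval 20.6 to 71.0) in the bud.

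The genes that kept a five-foliate level of at least 1 RPKM in either tissue numbered 5. Glyma02g06860 had 8.98 RPKM in the standard tip, 2.95 in the five-foliate tip, 10.05 in the standard bud, with 2.29 for the five-foliate bud. The standard level was 3.04-fold higher in the shoot tip (interval 2.85 to 3.26, from 3735 and 1123 reads) and 4.38-fold higher in the bud (interval 4.02 to 4.78). Glyma08g43150 had 4.31, 1.08, 7.40 and 2.45 RPKM in that order, 3.99-fold and 3.02-fold higher in the standard line. These 2 genes differed between lines by a few-fold in both tissues, far less than the near-zero genes.

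Glyma02g39960 had 23.0 RPKM in the standard tip, 7.26 in the five-foliate tip, 2.45 in the standard bud, with 0.501 for the five-foliate bud. Glyma14g38130 had 10.9, 4.91, 2.52 and 0.602 RPKM in that order. Both had lower bud than shoot tip levels within each line, and lower in the five-foliate line within each tissue. Glyma2099s00200, on a scaffold not placed on a chromosome, had 11.4, 2.23, 23.2 and 10.5 RPKM. Its values resembled those of Glyma03g05430 in the left-out interval, with 12.9, 3.37, 23.1 and 10.4 RPKM, a gene chosen for mention after the values were seen.

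A pair on chromosome 17 and Glyma02g40250 complete the list. Glyma17g31730 had 2.23 RPKM in the standard tip, 0.0760 in the five-foliate tip, 7.03 in the standard bud, with 0.307 for the five-foliate bud. It was the only member with a second listed model, which had 2.19, 0.0792, 6.66 and 0.320 RPKM and may share reads with the first. Glyma17g31800, 7 places on, had 2.56, 0.327, 1.03 and 0 RPKM. Between them, Glyma17g31770 had buds at 1.27 RPKM (standard) and 0 (five-foliate), but only 0.0368 and 0 in the shoot tips. Glyma17g31780, also between them, had 1.51 and 0 RPKM in the buds and 0.212 and 0 in the shoot tips. Glyma17g31790, directly before Glyma17g31800, had similar levels in both lines, with 21.0 and 22.3 RPKM in the shoot tips and 31.4 and 28.0 in the buds. Glyma02g40250 had 1.35, 0.0803, 2.14 and 0.155 RPKM, with 7 and 10 reads in the five-foliate libraries.

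**Figure D4:**
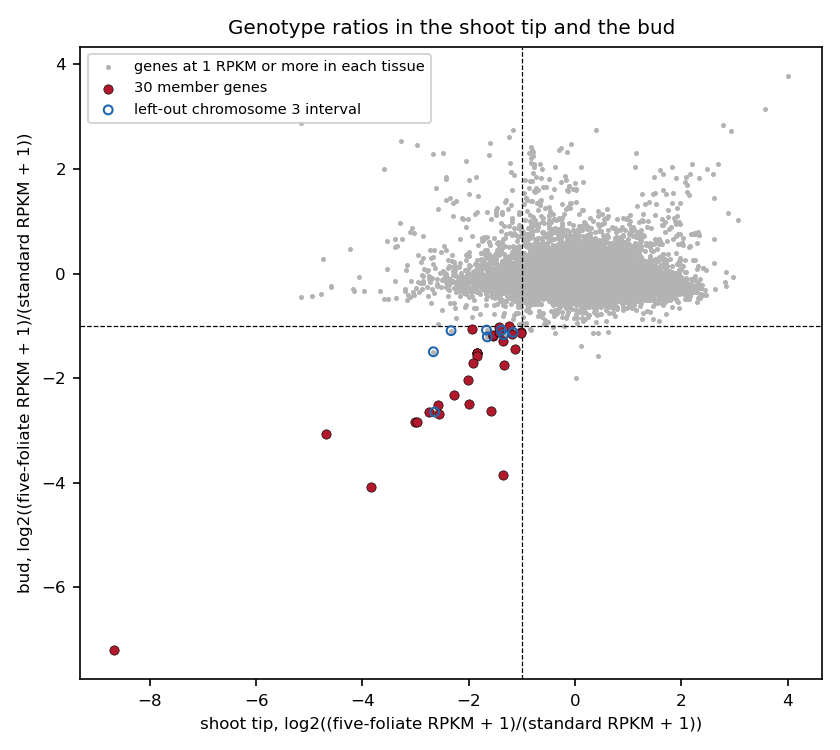
Genotype log2 ratio on the RPKM + 1 scale in the shoot tip (horizontal) and the bud (vertical), with grey points for genes at 1 RPKM or more in each tissue, filled points for the 30 members and open points for the 8 genes of the left-out interval. Dashed lines mark -1, and the members occupy the lower left corner that the rule selects, with Glyma04g35130 farthest out at -8.67 and -7.20.

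How far the ratios of the 2 tissues lay apart depended on the scaling. With RPKM as deposited they differed by less than 0.5 on the log2 scale in 25 of 30 members, which became 13 with ratios centred on the median of all genes and 14 with upper-quartile scaling. They differed by at least 1 in 4 members under each of these scalings. As deposited, 19 members had the lower ratio in the shoot tip and 11 in the bud, and the split was 26 to 4 with centred ratios and 26 to 4 with upper-quartile scaling. No share over all genes was computed for these counts, so they show no trait particular to the members. Centring shifts every member by the same amount within a tissue, as the median over all genes was 0.34 in the shoot tip and -0.06 in the bud. As deposited, the 4 with the largest tissue gaps included Glyma06g46330 at -1.35 in the shoot tip and -3.85 in the bud. They also included Glyma04g35150 at -4.69 and -3.07 and Glyma17g31730 at -1.58 and -2.62. The fourth was Glyma04g35130. Near the threshold, Glyma11g25760 had -1.247 in the shoot tip and -1.004 in the bud, Glyma14g38130 -1.01 and -1.13, and Glyma17g31800 -1.42 and -1.02. Just outside it were Glyma15g36000 at -1.06 and -0.97, Glyma02g08910 at -2.58 and -0.97, and Glyma03g18410 at -1.001 and -0.946.

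The bud was also compared with the shoot tip within each line, a ratio that the rule did not take, although it used the same libraries. The tissues stand in separate tables and each has 1 library per line, so this difference was not tested. In the standard line all 30 members had at least 1 RPKM in both tissues, which the rule forces at a pseudocount of 1. All genes passing the filter needed 1 RPKM in only 1 of the tissues, so they include genes restricted to 1 tissue. The choice of members thus shapes the comparison. Of the members, 2 were at least 2-fold higher in the bud, against 20.7% of all genes passing the filter. Another 4 were at least 2-fold lower, against 9.00%. The median log2 ratio of bud to shoot tip was -0.17 for the members and 0.47 for all genes passing the filter. In 20 members the log2 ratio lay within 0.5 of 0, but the share over all genes was not computed. The pseudocount draws ratios of low genes toward 0, and 12 members were under 3 RPKM in both standard libraries.

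The higher genes were Glyma06g46330, with a log2 ratio of 2.54, and Glyma17g31730, with 1.32. The lower genes were Glyma02g39960 at -2.80, Glyma14g38130 at -1.76, Glyma04g35150 at -1.66 and Glyma04g35130 at -1.53. In the five-foliate line only 5 members reached 1 RPKM in either tissue. Among those 5, Glyma2099s00200 was at least 2-fold higher in the bud, with a log2 ratio of 1.83, against 10.0% of all genes passing the filter. Glyma02g39960 at -2.46 and Glyma14g38130 at -1.88 were at least 2-fold lower, against 7.92% of all genes. These last 2 genes thus had the same tissue direction in both lines.

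**Figure D5:**
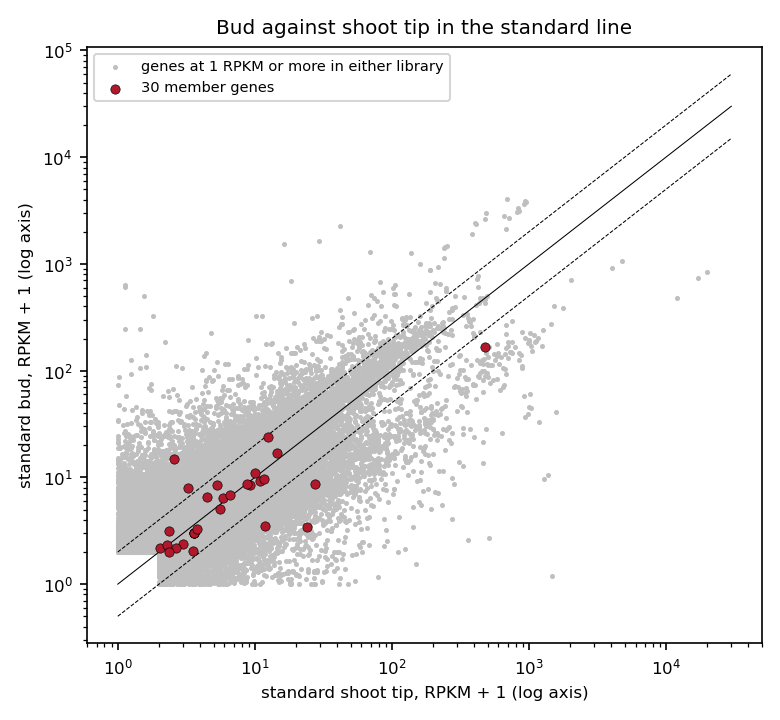
RPKM + 1 of each gene in the standard tip (horizontal, log axis) and the standard bud (vertical, log axis), with grey points for genes at 1 RPKM or more in either library and filled points for the 30 members. The solid line marks equal levels and the dashed lines a 2-fold difference on this scale, and 24 of the members lie between the dashed lines.

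The members also differed from other genes in recovered length and in the number of listed models. The length was recovered from the same RPKM values that the rule used. The shortest fitting model length had a median of 474 bases among the members, against 1333 bases among genes in both filters, and 17 of 30 were under 500 bases, against 12.2%. Among the 17 members with reads in all 4 libraries the median was 624 bases. Where a library has no read fewer values constrain the length, so lengths of such members can be too short. Of the 34421 genes in both filters, 34400 had reads in all 4 libraries. The 17 members under 500 bases include the genes of 248 bases that gave almost the same reads. A single model was listed for 29 of 30 members, against 82.2% of genes in both filters. Of the members, 29 lay on 13 of the 20 chromosomes, and 9 lay within 3 listed places of another member. No share over other genes was computed for these counts, so they show no difference from other genes. The 9 include Glyma04g16090 and Glyma06g38700, whose values were identical.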

How the data were processed

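The authors deposited 2 tables of RPKM, 1 per tissue, each listing 78773 gene models. Per the submitters' processing notes, Bowtie was used, with no version named. Not given in the sources used here are the genome build, the annotation and how multiply matching reads were counted. The 708957 rows of the bud table without an identifier or value were dropped. Samples were grouped by line and tissue from the titles and source names, 1 library each, so no test was run.

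Library totals were recovered as the whole numbers that turned the lowest RPKM values into whole model lengths. A model's length was the shortest from 20 to 20000 bases at which all its values were whole reads, within 0.0005 reads beyond the rounding of the deposited values, so reads are the fewest that could be fitted. This succeeded for 99.988% of the 34400 genes in both filters with 4 values above 0. On simulated data with known totals, 97.4% of 1000 lengths and 4 of 4 totals were recovered. The 1000 models all had reads in all 4 libraries. Recovery was therefore not measured for models with 0 reads in a library, as many members have. Totals count alignments, and reads are not independent molecules.

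The members, sets and lists were chosen with earlier results of these data known. The naming rule gave all 4 values for members at log2 ratios at or under -2 in both tissues, at or under 0.1 RPKM in both five-foliate libraries, at 20 RPKM or more in both standard libraries, or within 3 places of another member. The other members were named after their values were seen. Alternatives were pseudocounts of 0.1 and 5, centred ratios, upper-quartile scaling, summed models, a 3-fold threshold, other filters and copies counted once. Computations used SciPy 1.17.1, pandas 2.3.3, numpy 2.4.6 and Python 3.11.15, and figures used matplotlib 3.10.9.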

Additional observations from a re-analysis of the deposited data

How the results depend on the processing

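The number of genes lower in both five-foliate tissues, 30 as reported, was 7 with a pseudocount of 5, 13 with a 3-fold threshold and 10 with a filter of 5 RPKM, all of them among the 30. It was 43 with a pseudocount of 0.1, 29 with centred ratios (28 shared with the 30), 32 with upper-quartile scaling (28 shared) and 31 with models summed. With no filter it was 30, which was fixed in advance. At a pseudocount of 1 a ratio of -1 already needs a standard level of at least 1 RPKM. Chosen after the data were seen, keeping the chromosome 3 interval gave 38, and counting genes once where 3 of 4 values were equal gave 27. The median member log2 ratio in the shoot tip, -1.85, became -4.05 and -0.66 with pseudocounts of 0.1 and 5, -2.19 with centred ratios and -2.08 with upper-quartile scaling. In the bud it was -1.65, and -3.79 and -0.76 with these pseudocounts, -1.58 with centred ratios and -1.56 with upper-quartile scaling. With models summed the medians stayed at -1.85 and -1.65. Of 300 values of single members over these alternatives, 186 moved beyond their counting interval. That interval was set at a pseudocount of 1, so values at the other pseudocounts lie on another scale. Summing models could change only the 1 member with a second model. The count of 186 thus reflects the settings chosen and is no check of counting error. Also chosen after the data were seen, the count of members whose tissue ratios lay within 0.5 of each other, 25, was 13 with centred ratios and 14 with upper-quartile scaling. The counts of members 2-fold different between tissues stayed within 1.5 times under every alternative run on them. No paired analysis was possible because the results come from no test and each group held 1 library. The replicate number was the same for both lines within a tissue and differed between tissues. An additive model of line and tissue over the 4 libraries, with 1 residual degree of freedom, could be fitted but was not run, since the line ratios chose the members. Leaving out a library would end a comparison. Depth limits the genes near 1 RPKM, where a five-foliate count of 0 bounds the fold and does not measure it.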
